A study of Homo sapiens with 32 samples.

Results

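Clone B7 is a line of HCT116 cells, a human colorectal carcinoma line, that was grown from a single sorted cell after Cas9 was used to knock out IGF2BP2. It was compared with clones F6 and G6, the other IGF2BP2 knockout clones of the study. The labels gave B7 4 libraries and F6 and G6 together 8, so the comparison used 12 of the 32 RNA-seq libraries of the series, with treatment and replicate number as terms. The series sets knockouts of IGF2BP3 and of IGF2BP2 beside parental cells, with and without stress of the endoplasmic reticulum (ER). The comparison here asks how far 1 knockout clone differs from its sister clones, on chromosome 8 and elsewhere. All lines, the unedited parental cells included, carry a doxycycline-inducible OsTIR1 transgene with puromycin resistance (Tet-OsTIR1-PURO), the plant receptor used for auxin-driven protein degradation. The knockout clones had in addition been transfected for a short time with a plasmid carrying Cas9, GFP and a guide RNA. Each clone was sampled in 2 libraries with DMSO, the solvent control, and 2 with tunicamycin, a drug that blocks N-glycosylation in the ER. For the IGF2BP3 clones and the parental cells the labels give 5 µg/mL for 4 hours; dose and time for the IGF2BP2 clones are not given in the sources used here. The 2 DMSO libraries of G6 carry a treatment tag that names tunicamycin, against their titles. They were grouped by title, and their levels of the ER chaperone HSPA5, given with the processing below, lay with the other DMSO libraries. The parental cells, 8 libraries from 2 samples, served as a second reference. Each clone is 1 clone, so every p-value below measures the spread between these libraries and not between independent knockout clones. In the comparison with F6 and G6 these 2 clones formed 1 side without a term for clone. The difference between them is therefore part of that spread.

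IGF2BP2 belongs to a family of RNA-binding proteins that bind mRNAs in the cytoplasm and affect their stability and translation. Cells that gain or lose copies of a chromosome usually change the mRNA level of most genes on it roughly in step with the number of copies, and single-cell cloning passes the chromosome content of 1 founder cell to a whole line. HCT116 is known as a near-diploid line with few rearrangements, 1 of which joins an additional copy of the distal part of 8q to chromosome 16.

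The guides are shown because B7 and F6 were made with the same one, so the guide does not separate them. Both lie in exon 1 of 16 of IGF2BP2, in its coding sequence, with starts 58 bases apart. The capitals mark the 3 bases next to the guide's match, the PAM that Cas9 requires.
B7 and F6: gagctgccggaggtcgtcggCGG
G6: aggcgtagccggacttcagcAGG
The guide of B7 and F6 matched chr3:185824895-185824914 and that of G6 chr3:185824837-185824856 (GRCh38, plus strand, while the gene lies on the minus strand). IGF2BP2 itself stood at 82.4 and 81.5 CPM (counts scaled to a common library size) in the DMSO libraries of B7 and at 103 and 100 CPM with tunicamycin. In F6 and G6 it ranged from 82.5 to 115 CPM (median 96.7), and in parental cells from 161 to 207 CPM (median 187). All 3 clones therefore held less IGF2BP2 mRNA than any parental library, while B7 lay just below F6 and G6 in DMSO and overlapped them in tunicamycin. Between B7 and the other clones the difference was -0.11 ± 0.041 (SE, log2 scale) and did not pass edgeR's quasi-likelihood test (adjusted p = 0.0847), and against parental cells it was -1.02 (adjusted p = 9.4e-13).

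The 12 libraries held 16651438 to 22426669 counts (median 20373114.5). Epithelial markers were present (8 of 10 above a median of 1 CPM, with VIL1 and LGALS4 below it), and their summed level was 3510 to 4120 CPM in B7 and 3150 to 5670 CPM in F6 and G6. Of 6 fibroblast markers only COL1A1 passed 1 CPM (mean 8.87 CPM), and the list summed to 8.9 to 12.2 CPM in B7 and 4.97 to 12.1 CPM in F6 and G6. None of 5 leukocyte and 4 endothelial markers passed 1 CPM.

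In B7, genes of chromosome 8 were higher nearly along the whole chromosome. A gene is called when its Benjamini-Hochberg adjusted p in edgeR's quasi-likelihood test, taken over all genes tested, was under 0.05. Of 523 chromosome 8 genes tested, 349 were called higher and 4 lower. Over all 14952 genes tested, 14.3% were called, 7.59% higher and 6.67% lower. Chromosome 8 held 3.5% of the genes tested and 30.7% of those called higher. Its median log2 fold change was 0.46, a 1.37-fold level, against -0.02 over the 14429 genes elsewhere. In 322 of the 523 genes every B7 library lay above every F6 and G6 library of the same treatment. That pattern was found in 6.63% of all genes tested. The gain held against each clone alone, with chromosome 8 medians of 0.45 against F6 and 0.47 against G6, and in each treatment, with 0.47 in DMSO and 0.46 in tunicamycin. In all, 338 chromosome 8 genes were called in the same direction against F6 and against G6 separately.

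**Figure D1:**
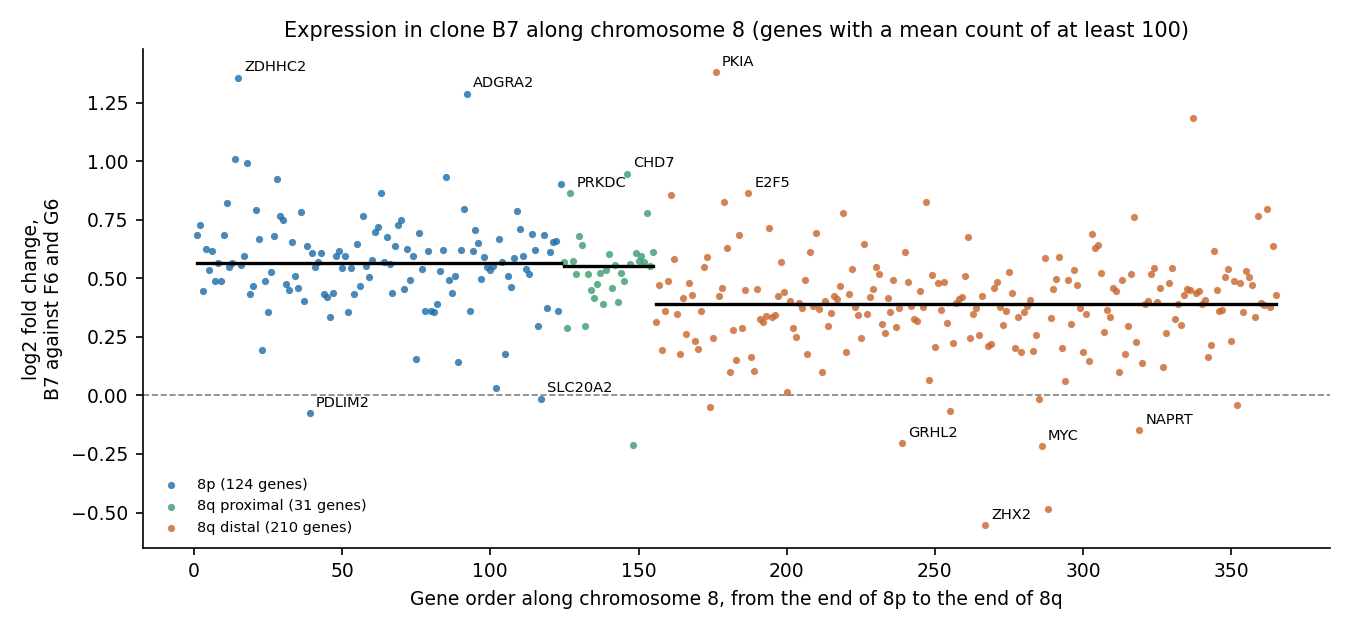
Each point is a chromosome 8 gene with a mean count of at least 100 over the 12 libraries (365 genes), in order along the chromosome, and the vertical axis is its log2 fold change in B7 against F6 and G6. Black lines are medians of 8p, proximal 8q and distal 8q, and 12 points lie at or below 0.

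The size of the gain differed along the chromosome. On 8p the 175 tested genes had a median log2 fold change of 0.56 (1.48-fold), with 131 called higher and 0 lower. On 8q 218 of 348 genes were called higher and 4 lower, with a median of 0.40. A single division of the 365 genes with a mean count of at least 100 separated them best between MYBL1 and VCPIP1, whose starts lie at 66562175 and 66628487. The 45 tested genes of 8q before that point had a median of 0.53, close to that of 8p, and the 303 beyond it a median of 0.38 (1.3-fold). The division was chosen on these data and is given without a test. With the tunicamycin libraries alone, without DMSO replicate 2 of B7, or against parental cells it fell instead between NCOA2 and TRAM1 (starts 70109762 and 70573442). Against parental cells in DMSO alone it fell between PDE7A and RRS1 (65717510 and 66429028), and in tunicamycin alone further out, between WWP1 and RMDN1 (86342738 and 86468257). Copy number was not measured here and the RNA came from whole cultures, so a change in all cells and a larger change in some, and likewise more copies of the chromosome and more mRNA per copy cannot be told apart. As arithmetic for scale only, a ratio of 3 to 2 is 0.585 on the log2 scale and a ratio of 4 to 3 is 0.415.

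Per library, the median log2 difference over chromosome 8 genes from the mean of F6 and G6 of the same treatment and replicate was 0.458 to 0.49 in the 4 B7 libraries (mean 0.47 ± 0.0151, SD, n = 4). In F6 and G6 it was -0.0178 to 0.0178, in the 8 parental libraries -0.0373 to 0.0443, and in the 12 libraries of IGF2BP3 knockout clones -0.0674 to 0.0194. No other library came near B7. Within B7 the 8p medians (0.559 to 0.584) lay above those of distal 8q (0.362 to 0.423) without overlap, and proximal 8q (0.484 to 0.588) overlapped 8p. Genes of chromosome 8 took 5.22% to 5.33% of all counts in B7, 3.79% to 4.07% in F6 and G6 and 3.83% to 3.97% in parental cells.

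**Figure D2:**
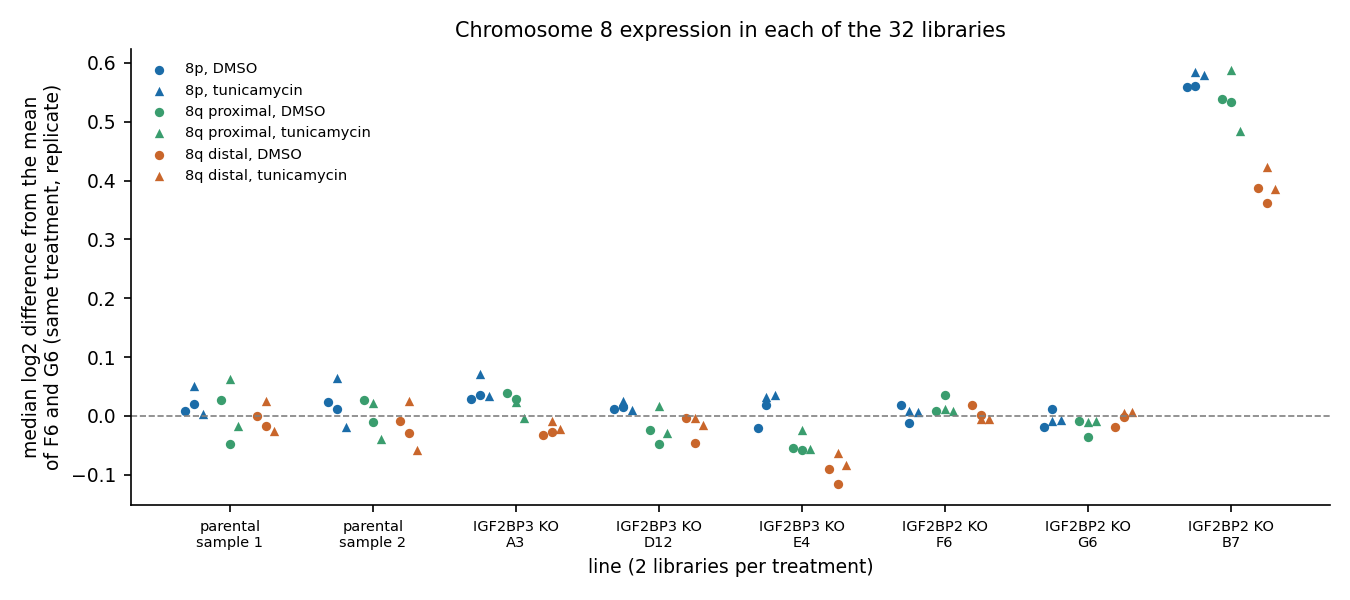
Each symbol is the median over genes of 1 chromosome 8 segment in 1 library, as the log2 difference from the mean of F6 and G6 with the same treatment and replicate number. Circles are DMSO and triangles tunicamycin, and the B7 libraries sit between 0.362 and 0.588 while all others lie between -0.116 and 0.0711.

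No other chromosome arm moved in this way. The 39 other arms with at least 20 tested genes had medians between -0.05 (4q) and 0.01 (5p), with 6.52% (21q) to 18.7% (19q) of their genes called. Against parental cells the medians of B7 were 0.53 on 8p and 0.43 on 8q, and 399 of 528 chromosome 8 genes were called higher, where 26.9% of all genes were called, 12.7% higher and 14.2% lower. F6 and G6 against parental cells had medians of -0.01 on 8p and 0.02 on 8q, with 18 of 516 chromosome 8 genes called higher, where 5.66% of all genes were called, 2.71% higher and 2.95% lower. The comparisons share libraries, those of B7 or of parental cells, so they are set side by side and were not correlated. Among the 6 knockout lines of the series, B7 was the one line in which the median of any arm differed from parental cells by more than 0.1 (log2).

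**Figure D3:**
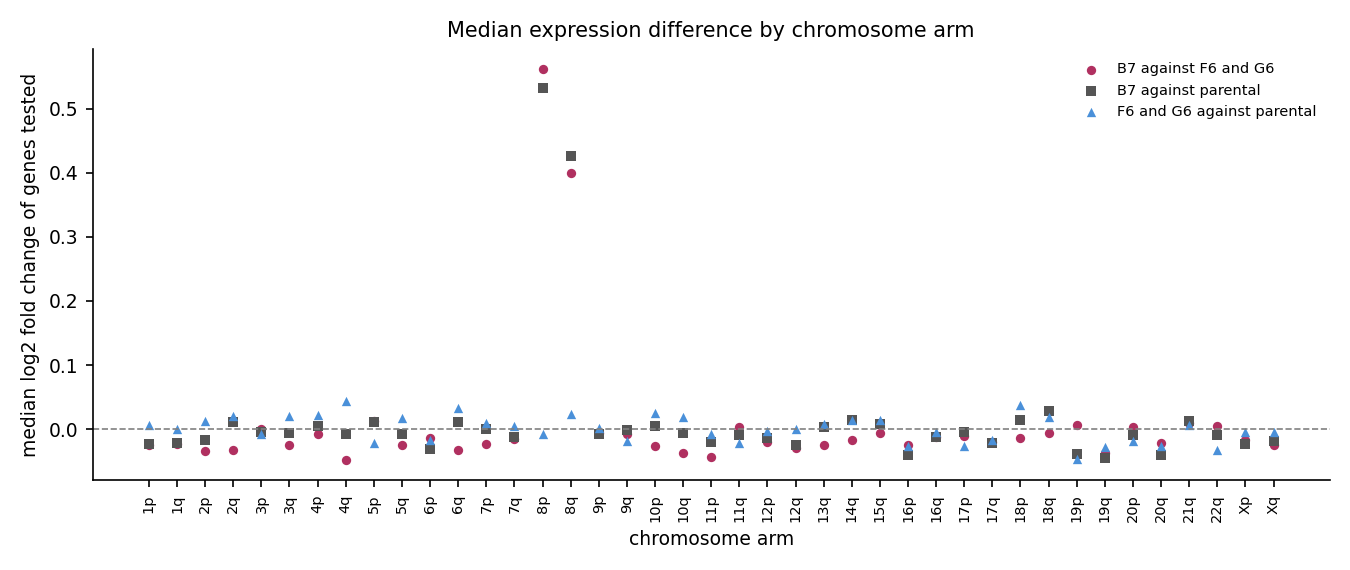
The median log2 fold change of the tested genes of each chromosome arm is shown for 3 comparisons. For B7 the arms of chromosome 8 lie between 0.40 and 0.56, while the other arms in all 3 comparisons lie within 0.05 of 0.

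No difference in the response to tunicamycin was called for B7, on chromosome 8 or elsewhere. The interaction of B7 with treatment, which asks whether the response of B7 differs from that of F6 and G6, called 0 of 15356 genes (0.0%) in edgeR and 0 in DESeq2. At an unadjusted p under 0.05, edgeR counted 284 genes (1.85%), of which 12 of 535 lay on chromosome 8, and DESeq2 counted 126. Chance alone would pass a share of about 0.05, so the test was conservative and the lack of calls does not mean an equal response. In edgeR the interaction called 26 genes with no filter on low counts, 2 with the comparison lines as separate terms and 9 without clone G6. The chromosome 8 median of the interaction was -0.0014. TNFRSF10B, a death receptor gene on 8p that ER stress is known to raise, stood at 210 and 230 CPM in DMSO and 532 and 552 CPM with tunicamycin in B7. In F6 and G6 it lay between 156 and 170 CPM and between 374 and 434 CPM. Its log2 fold change in B7 was 0.43 (adjusted p = 1.65e-06). The B7 libraries were the highest within each treatment.

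The gain was present at each level of expression. The 32 chromosome 8 genes with a mean count of at least 5000 had a median log2 fold change of 0.37, the 156 with 1000 to 5000 counts 0.46 and the 177 with 100 to 1000 counts 0.48. By class, the 417 protein-coding genes had a median of 0.46, with 326 called higher and 3 lower. The 39 antisense genes had a median of 0.29 (10 called higher) and the 30 long intergenic RNA genes 0.39 (7 called higher). The 15 processed pseudogenes had a median of 0.04 and none was called. Reads of a pseudogene and of its parent gene cannot be separated with certainty, so these values are uncertain.

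Among 54 tested genes of a list of 8p genes, 46 were called higher and none lower (median 0.57), and of 85 tested genes of a list of 8q genes 74 were called higher and none lower (median 0.39). Each list is a part of its arm, on which 131 of 175 genes (8p) and 218 of 348 genes (8q) were called higher, with medians of 0.56 and 0.40, so nothing is read as particular to the lists. They hold genes of many kinds. FGFR1, a receptor for fibroblast growth factors, stood at 95.5 and 98 CPM in DMSO and 87.4 and 87.1 CPM with tunicamycin in B7, against 49.4 to 66.2 CPM (median 57.6) in F6 and G6. Each B7 value was above all 8 others, and the log2 fold change was 0.67 ± 0.067 (SE) with an adjusted p of 1.91e-05. PABPC1, the cytoplasmic poly(A)-binding protein, was among the most abundant mRNAs of the chromosome, at 3610 to 4130 CPM in B7 and 2520 to 2930 CPM in F6 and G6. Its log2 fold change was 0.49 ± 0.028 (SE) with an adjusted p of 2.01e-07. PTK2, which encodes focal adhesion kinase at the far end of 8q, rose by 0.35 (206 to 230 CPM against 159 to 184 CPM). HSF1, the main transcription factor of the heat shock response, rose by 0.39. The listed heat shock genes, all of them elsewhere, did not rise with it: 0 of 15 were called higher, and their median was 0.06. Most heat shock proteins act in the cytosol, but HSPD1, which is on the list, encodes a chaperone of mitochondria. HSPD1 was called lower by a narrow margin (-0.13, adjusted p = 0.0461), and the call was lost without the replicate term (0.107), with the scaling factors of DESeq2 (0.0517), with those from genes off chromosome 8 (0.0637) and without any 1 of 9 libraries (0.0543 to 0.225).

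Some genes rose by more than their arm. Each gene was tested against the median log2 fold change of its own arm, entered as an offset for the B7 libraries. The medians come from the same libraries, so this test describes those libraries. Over all genes with a position 11.7% were called, 6.45% above and 5.25% below their arm. On chromosome 8 51 genes were called above and 37 below. Among genes with a mean count of at least 100, 46 were above and 32 below. Of these 46, 15 lay among the 31 genes of proximal 8q, where the level of the whole segment was above the median of 8q.

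ZDHHC2, a palmitoyltransferase on 8p, and PKIA on 8q had the 2 largest gains among genes with a mean count of at least 100 and no overlap. ZDHHC2 stood at 166 and 148 CPM in DMSO and 144 and 132 CPM with tunicamycin in B7. In F6 and G6 it ranged from 50.8 to 66.6 CPM (median 56.2) and in parental cells from 52.5 to 74.3 CPM. Every B7 library lay above all others. The gain was 1.36 on the log2 scale (SE 0.034, adjusted p = 9.1e-11), and 0.79 relative to the arm (adjusted p = 2.3e-08). PKIA, an inhibitor of protein kinase A, had a log2 fold change of 1.38 at a lower level, with 9.57, 9.56, 8.58 and 7.39 CPM in B7 and 2.05 to 4.47 CPM in F6 and G6. The comparison clones differed in it, F6 lying at 2.49 ± 0.29 CPM and G6 at 4.21 ± 0.26 CPM (SD, n = 4 each). ADGRA2, an adhesion receptor required for Wnt7 signalling in brain vessels, rose by 1.29 (11.4 to 15.3 CPM against 3.37 to 6.92 CPM). XPO7, a nuclear transport receptor, rose by 0.92, from 103 to 115 CPM in F6 and G6 to 198 to 218 CPM in B7. CHD7, a chromatin remodeller, rose by 0.95 and was higher in DMSO than in tunicamycin in every clone (110 and 121 against 65 and 67.2 CPM in B7, 53 to 62.7 against 30.1 to 38.6 CPM in F6 and G6). The remaining genes of the 12 largest gains were TSSK5P, LONRF1, SLC7A2, HGSNAT, SCARA3, E2F5 and PRKDC, with log2 fold changes from 0.86 to 1.18. NRG1, a ligand of the EGF receptor family, had a larger change of 2.02 (adjusted p = 2.9e-05) at a low level, with 1.71 to 4.04 CPM in B7 and 0.244 to 1.09 CPM in F6 and G6.

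PRKDC and MCM4 are neighbours that start 2 bases apart and are transcribed away from each other. PRKDC encodes the catalytic subunit of the DNA-dependent protein kinase, which joins broken DNA ends, and MCM4 a subunit of the replicative helicase. PRKDC stood at 1990, 1940, 2050 and 2040 CPM in B7, against 1190 to 1280 CPM in F6, 871 to 1070 CPM in G6 and 1160 to 1340 CPM in parental cells. The B7 libraries were the highest and G6 the lowest, so the log2 fold change of B7 was 0.68 against F6 and 1.06 against G6. MCM4 stood at 631 to 814 CPM in B7 and 426 to 549 CPM in F6 and G6, a log2 fold change of 0.58. PRKDC was called above the median of 8q (adjusted p = 0.0077) but not above the median of the genes before the division of 8q (adjusted p = 0.0532).

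Genes that did not follow the chromosome were few. Of the 365 chromosome 8 genes with a mean count of at least 100, 12 had a log2 fold change at or below 0: 2 on 8p, 1 on proximal 8q and 9 on distal 8q. Of the 12, 3 were called lower. Over all 523 tested genes 40 were at or below 0.

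ZHX2, which encodes a transcriptional repressor with zinc fingers and homeoboxes (chr8:122781394-122974512), had the lowest log2 fold change of these 12. It stood at 5.87 and 5.28 CPM in DMSO and 6.62 and 6.08 CPM with tunicamycin in B7. In F6 and G6 it was 6.18 to 8.69 CPM in DMSO and 8.16 to 11.8 CPM with tunicamycin. In each treatment all B7 libraries lay below all libraries of F6 and G6. The log2 fold change was -0.55 ± 0.093 (SE) with an adjusted p of 0.00133, at -0.57 against F6, -0.56 against G6 and -0.36 against parental cells. Relative to its arm the value was -0.95 (adjusted p = 4.8e-05). The call against F6 and G6 was lost in either treatment alone (adjusted p = 0.191 in DMSO and 0.0882 in tunicamycin).

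MYC, the transcription factor gene of 8q24 (chr8:127735434-127741434), stood at 532 and 431 CPM in DMSO and 474 and 380 CPM with tunicamycin in B7. In F6 it was 664, 502, 629 and 449 CPM, in G6 577, 456, 543 and 410 CPM, in the same order, and in parental cells 411 to 705 CPM (median 548). Replicate 1 was higher than replicate 2 in every pair, and within each replicate and treatment B7 was the lowest of the 3 clones. The log2 fold change was -0.22 ± 0.052 (SE) with an adjusted p of 0.0152, -0.31 against F6 and -0.13 against G6, and against its arm -0.62 (adjusted p = 1.9e-05). The call against F6 and G6 was lost without the replicate term (log2 fold change -0.22, adjusted p = 0.287), in either treatment alone (0.298 in DMSO, 0.278 in tunicamycin) and without DMSO replicate 1, tunicamycin replicate 1 or tunicamycin replicate 2 of B7 (0.0773, 0.0905 and 0.0683). The direction was the same in each, and the call against the arm stayed in all of these. The third gene called lower among those with a mean count of at least 100 was an unnamed long intergenic RNA gene (ENSG00000285108_1, chr8:129685401-129723023), at 2.12 to 6.43 CPM in B7 and 2.36 to 11.6 CPM in F6 and G6, with a log2 fold change of -0.49 (adjusted p = 0.0149). Its call was lost without the replicate term (adjusted p = 0.118), in either treatment alone (0.223 and 0.426) and without either replicate 2 library of B7 (0.094 and 0.0688). Below that level KCNK9, a potassium channel gene of distal 8q with a mean count of 7.5, was also called lower (-1.42, adjusted p = 0.00564). It stood at 0.169 ± 0.0763 CPM in B7, 0.489 ± 0.108 CPM in F6, 0.437 ± 0.0865 CPM in G6 (SD, n = 4 each) and 0.408 ± 0.134 CPM in parental cells (SD, n = 8), and it is named after its values were seen.

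For some genes the comparison clones themselves stood apart. GRHL2, a transcription factor of epithelia, was at 27 to 29.1 CPM in F6, 4.83 to 7.42 CPM in G6, 8.23 to 10.7 CPM in parental cells and 11.8 to 17.4 CPM in B7. B7 thus lay between the others, below F6 (-0.93) and above G6 (1.26). SLC20A2, a phosphate transporter gene on 8p, was at 91.1 to 131 CPM in F6, 37.5 to 49.6 CPM in G6, 41.9 to 62.8 CPM in parental cells and 69.8 to 82.4 CPM in B7. Against parental cells B7 was called higher in both, by 0.63 for GRHL2 and 0.52 for SLC20A2, so their values at or below 0 rest on clone F6.

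The other genes at or below 0 were NAPRT (-0.15), PDLIM2 (-0.08), SYBU (-0.07), ZFHX4 (-0.05), MFSD3 (-0.04), CASC8 (-0.02) and the pseudogene KRT8P3 (-0.21), none of them called against F6 and G6. NAPRT makes NAD from nicotinic acid. It stood at 16.7 to 20.4 CPM in B7, 18.5 to 23.2 CPM in F6 and G6 and 15.8 to 24.9 CPM in parental cells, and the groups overlapped. PDLIM2, a PDZ and LIM domain protein gene on 8p, stood at 23.2 to 27.2 CPM in B7 and 21.7 to 33 CPM in F6 and G6. Both were called below their arm, NAPRT at -0.55 (adjusted p = 0.00012) and PDLIM2 at -0.64 (adjusted p = 0.0012), as were LETM2 (-0.53), SYBU (-0.47) and ZFHX4 (-0.45). The calls of LETM2 and SYBU against the arm were lost without single B7 libraries: LETM2 without DMSO replicate 1 or tunicamycin replicate 2 (adjusted p = 0.111 and 0.0983), SYBU without DMSO replicate 2 (0.0619). DUSP4, a phosphatase of MAP kinases on 8p, did not pass the test against F6 and G6 (0.16, adjusted p = 0.067) and stood at -0.41 relative to its arm (adjusted p = 0.00052).

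Protein complexes offered a comparison of subunits on chromosome 8 with their partners elsewhere. In 12 complexes and families, 16 of the 18 subunits encoded on chromosome 8 were called higher, with a median of 0.33. Over all tested genes of the chromosome 66.7% were called higher, with a median of 0.46. Of the 107 tested subunits encoded elsewhere, 0 were called higher and 18 lower, with a median of -0.08. Over all tested genes off chromosome 8, 5.45% were called higher and 6.88% lower, with a median of -0.02. The counts describe these subunits, which were not tested as a set against other genes. RPL30 (0.24, adjusted p = 0.369) and UQCRB (0.19, adjusted p = 0.177) were the 2 chromosome 8 subunits that did not pass. For the DNA-dependent protein kinase, PRKDC rose by 0.86 while its partners XRCC5 and XRCC6 had values of -0.05 and -0.03. For the MCM helicase, MCM4 rose by 0.58 and the other 5 subunits lay between 0.06 and 0.11, none of them called. RAD21, the cleavable subunit of the cohesin ring, stood at 613 to 724 CPM in B7 and 472 to 530 CPM in F6 and G6 (0.41, adjusted p = 1.92e-06), while none of 8 other cohesin genes was called. In the proton pump of lysosomes, ATP6V1B2, ATP6V1C1 and ATP6V1H rose by 0.68, 0.32 and 0.30, and none of 5 partners was called. RPS20 of the small ribosomal subunit rose by 0.54, at 743 to 893 CPM against 485 to 639 CPM. COX6C of cytochrome c oxidase rose by 0.52, EMC2 of the ER membrane complex by 0.48 and COPS5, the protease subunit of the COP9 signalosome, by 0.36.

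**Figure D4:**
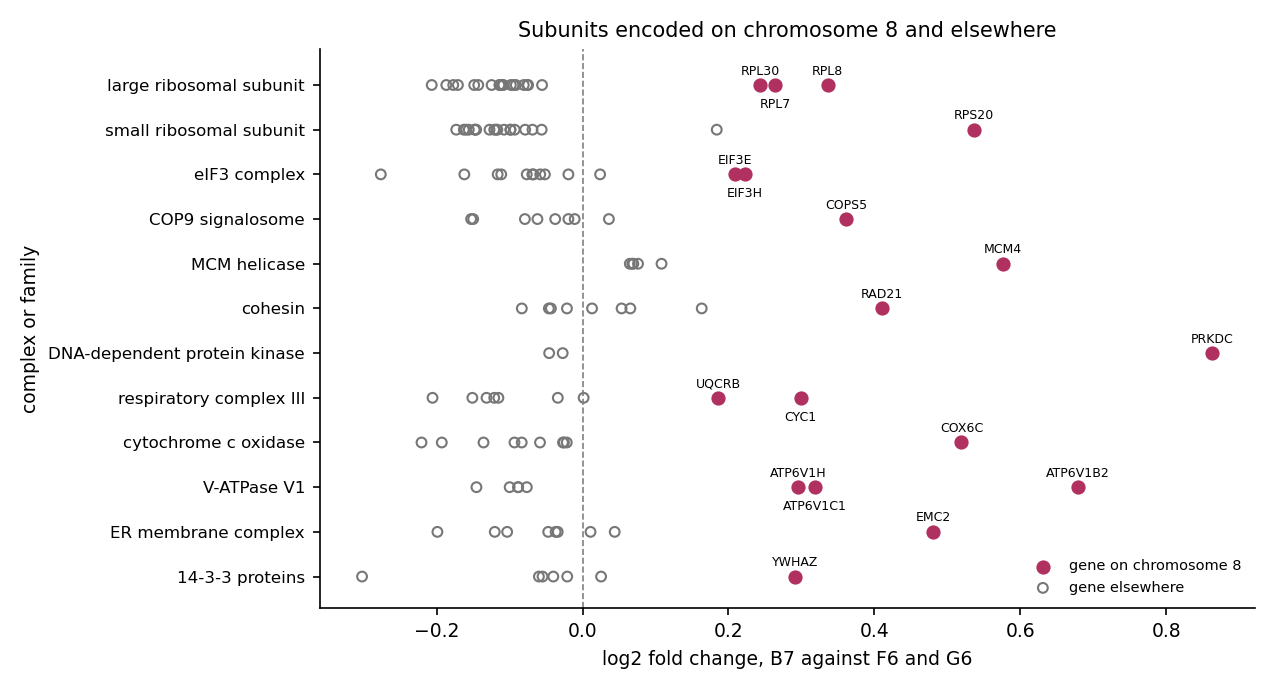
Each symbol is a subunit, placed by its log2 fold change in B7 against F6 and G6. Filled symbols are genes of chromosome 8 (0.19 to 0.86) and open symbols genes elsewhere (-0.30 to 0.18), and no complex has an open symbol to the right of its filled ones.

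Among subunits elsewhere, those called lower were 7 of 19 proteins of the large ribosomal subunit, 4 of 19 of the small subunit and 4 of 11 of eIF3, and 1 each of COP9, complex III and the ER membrane complex. The ribosomal medians were -0.11 and -0.12, and remained between -0.10 and -0.12 under each scaling tried. The count of 18 did not hold as well: it was 10 with scaling factors taken from genes off chromosome 8, 1 without the replicate term and 2 to 41 when single libraries were left out. The median over all genes off chromosome 8 was -0.02.

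Off chromosome 8, 1779 of 14429 genes were called, 786 higher and 993 lower. That is 12.3% of them. The number was 1082 without the replicate term, 901 and 1055 without DMSO and tunicamycin replicate 1 of B7, 908 and 914 without the corresponding replicate 2, and 1463 to 2192 without single libraries of F6 or G6. It was 205 in DMSO alone, 128 in tunicamycin alone, 2695 without clone F6 and 4525 without clone G6. With scaling factors taken from genes off chromosome 8 the counts were 847 and 878. The median size of the called changes was 0.31 (log2), and 61 genes were called higher and 122 lower by more than 1. Against F6 and against G6 separately, 1320 of the 1779 were called in the same direction, and 1321 were also called in that direction against parental cells.

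CASK, a scaffold protein gene of the X chromosome, was called lower. It stood at 3.66 and 4.37 CPM in DMSO and 5.88 and 5.23 CPM with tunicamycin in B7, against 36.8 to 51.4 CPM (median 40.8) in F6 and G6 and 35.8 to 43.5 CPM in parental cells. The log2 fold change was -3.15 ± 0.110 (SE) with an adjusted p of 2.47e-09, with no overlap. SCG2 and VGF, which both encode proteins of secretory granules, fell by 2.05 and 1.47, to 9.51 to 11.9 and 14.7 to 17.1 CPM. ARHGAP42 fell by 1.42. ALDH1A3 (retinoic acid synthesis) fell by 1.63 and HAS3 (hyaluronan synthesis) by 1.82, but in both F6 stood above G6 and parental cells of the same treatment. ALDH1A3 was at 36.1 to 48.3 CPM in B7, 136 to 216 CPM in F6, 68.9 to 116 CPM in G6 and 64.1 to 103 CPM in parental cells, and its value ranged from -2.04 to -1.07 over the alternatives. In DMSO HAS3 was at 19.9 and 16.4 CPM in B7, 125 and 77.1 CPM in F6 and 42.5 and 33.3 CPM in G6, and its value ranged from -2.40 to -0.93. NRP1, a receptor for semaphorins and VEGF, had a log2 fold change of -2.22 (adjusted p = 0.0202), but F6 (2.99 to 4.97 CPM) was itself far below G6 (10.7 to 20.1 CPM). The calls of NRP1 and of MB21D2 (-1.43) were lost without any 1 of the 4 B7 libraries (adjusted p up to 0.0756 and 0.0804), and that of HAS3 without DMSO replicate 1 of B7 (0.0525).

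Genes off chromosome 8 were also called higher in B7. SMAD7, an inhibitor of TGF-beta signalling, rose by 1.57 and PWWP3B by 1.36. NECTIN3, an adhesion protein, rose by 1.49 to 297 to 312 CPM, from 71.2 to 89 CPM in F6 and 123 to 147 CPM in G6. Further genes called higher were SCML1, SUSD2, HTR7, ZBED2, ARNT2, EML1, KIF21B and PDLIM1 (0.94 to 1.35). In several of them the comparison clones stood apart. SCML1 was at 13.9 to 17.6 CPM in B7, 3.08 to 3.76 CPM in F6 and 7.1 to 10.6 CPM in G6, and its value ranged from 0.81 to 2.23 over the alternatives. HTR7 was at 104 to 110 CPM in B7, 26.4 to 31.8 CPM in F6 and 57.9 to 73 CPM in G6, with a range from 0.72 to 1.88. In DMSO ZBED2 was at 69.8 and 59.8 CPM in B7, 21.6 and 19.3 CPM in F6 and 49.2 and 44 CPM in G6. SUSD2 and ARNT2 were likewise lower in F6 than in G6 in every library, and PDLIM1 was higher in F6. KIF21B differed by treatment in B7, at 6.25 and 5.93 CPM in DMSO and 10.1 and 10.3 CPM with tunicamycin. In F6 and G6 it lay between 3.69 and 4.8 CPM and in parental cells between 3.53 and 4.64 CPM over both treatments. Its value ranged from 0.56 to 1.33 over the alternatives, and it was not called in the interaction. The call of ZBED2 was lost without any 1 of the 4 B7 libraries or without either DMSO library of F6, and those of SCML1 and ARNT2 without DMSO replicate 2 of B7 (0.0576 and 0.0548).

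Zinc finger genes of chromosome 19 stood out among the genes that were lower. This group was chosen after the values had been seen, because 4 of the 12 named falls were ZNF genes there, so it is given as a description with no test. ZNF genes encode transcription factors with arrays of C2H2 fingers, many of them with a KRAB domain that represses transcription, and they lie on chromosome 19 in large clusters of related copies. Of 161 tested ZNF genes of chromosome 19, 50 were called lower and 4 higher, which is 33.5% called. They were taken by symbol, so the 161 include some antisense, divergent and read-through transcripts and some pseudogenes. The pseudogenes ZNF137P and ZNF702P are among the 50. Of 221 ZNF genes on other chromosomes apart from 8, 4 were called lower and 11 higher, and of the 841 other genes of chromosome 19, 51 were called lower and 51 higher. On 19q 41 of 117 and on 19p 9 of 44 were called lower. The fall exceeded 1 (log2) in 24 of the 50, and the median of the 50 was -0.91. A mean count of at least 100 was reached by 24 of the 50, which are not the same 24 genes. Some large falls rest on few counts, with mean counts of 7.83 for ZNF550, 9.08 for ZNF432 and 11.8 for ZNF615. ZNF134 and ZNF83 had mean counts of 146.6 and 243.6. All 50 were also called lower against F6 alone, 46 against G6 alone and 39 against parental cells. Of all 2132 genes called, 2015 were called against F6 alone, 1762 against G6 alone and 1668 in the same direction against parental cells. F6 and G6 against parental cells had a median of 0.17 over the same 50, and 9 were called there, 8 of them higher. The 50 were picked as lower in B7 than in these F6 and G6 libraries, and the parental comparison used the same B7 libraries. These counts and this median are thus a description and no separate support. The counts of genes called lower ranged from 32 to 53 when single libraries were left out, the lowest without tunicamycin replicate 2 of B7.

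**Figure D5:**
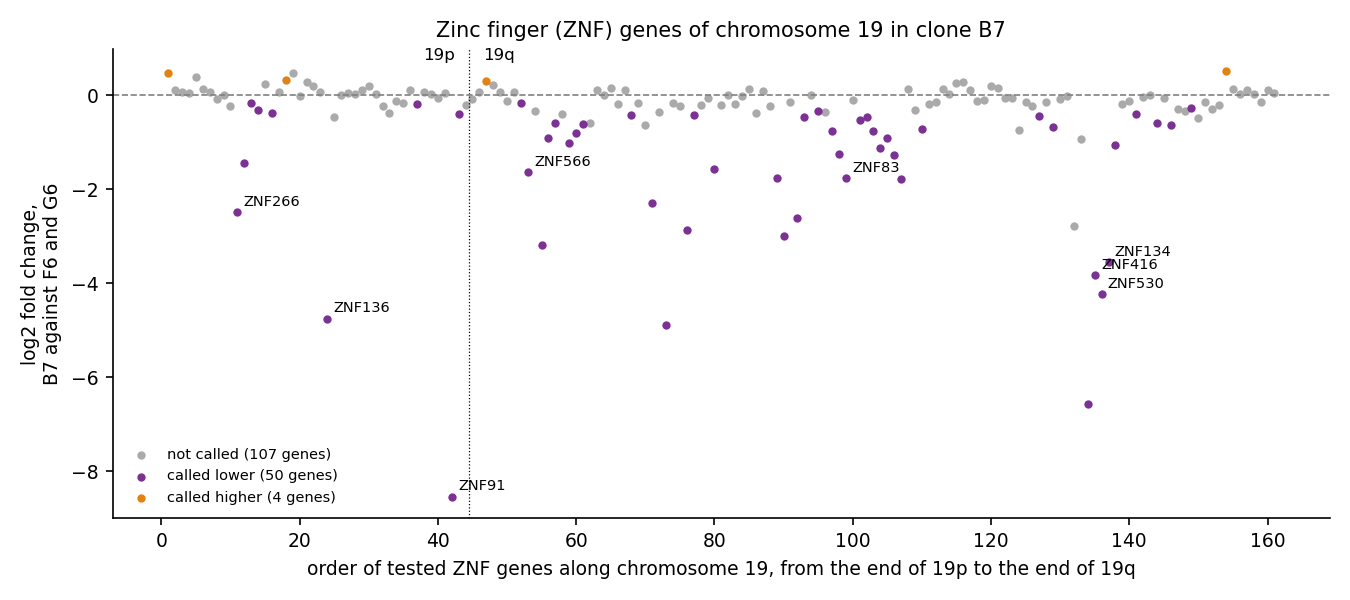
Each point is a tested ZNF gene of chromosome 19 in order along the chromosome, placed by its log2 fold change in B7 against F6 and G6. Genes called lower (50) lie on both arms between genes that were not called (107), and 4 were called higher.

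ZNF134 stood at 0.722, 0.643, 1.27 and 0.955 CPM in B7, against 6.83 to 12.7 CPM (median 10) in F6 and G6 and 7.92 to 11.8 CPM in parental cells. Its log2 fold change was -3.55 ± 0.210 (SE) with an adjusted p of 2.31e-07. Its neighbours ZNF416 and ZNF530, named after their values were seen, were as low: ZNF416 at 0.101 to 0.322 CPM against 2.42 to 4.94 CPM, and ZNF530 at 0.106 to 0.352 CPM against 3.08 to 5.46 CPM. The 3 genes lie between 57571566 and 57624723 on 19q. ZNF266 on 19p stood at 0.827 to 2.7 CPM against 7.03 to 11.9 CPM (-2.49), and ZNF136, also on 19p, at 0.0919 to 0.192 CPM against 2.61 to 5.24 CPM (-4.76). ZNF83 and ZNF566 fell by 1.77 and 1.65. ZNF91 and ZNF550 had no count in any B7 library, against 367 and 94 counts over the 8 libraries of F6 and G6. With a floor of 3 counts over the 4 libraries, their levels were at least 62.4-fold and 15.7-fold lower than the mean of F6 and G6. For ZNF91 the comparison clones differed, at 3.51 CPM in F6 and 1.09 CPM in G6 beside 4.48 CPM in parental cells, so B7 was at least 95.2-fold lower than F6 and at least 29.5-fold lower than G6. F6 and G6 were themselves called lower than parental cells in ZNF91 (-0.98, adjusted p = 0.0487). For ZNF550 F6 and G6 stood at 0.565 and 0.592 CPM. Related ZNF copies can share reads, and ZNF320 and ZNF468, which fell by 1.13 and 0.77, overlap on the chromosome, so single values in these clusters are less certain than those of isolated genes.

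Upstream sequence is shown for 2 of these genes, 1 on each arm, to show the kind of promoter the lower members have, and CG dinucleotides (in capitals), the sites of DNA methylation, are the one feature counted. Each run is the 250 bases before the gene's start, in the direction of the gene (RefSeq, GRCh38.p14), with 17 CG in ZNF134 and 12 in ZNF266.
ZNF134 (chr19:57613992-57614241): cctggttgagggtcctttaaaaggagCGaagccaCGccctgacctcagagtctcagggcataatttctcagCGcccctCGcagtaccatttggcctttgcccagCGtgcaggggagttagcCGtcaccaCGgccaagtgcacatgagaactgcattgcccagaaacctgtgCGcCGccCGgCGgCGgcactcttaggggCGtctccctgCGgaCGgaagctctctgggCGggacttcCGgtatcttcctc
ZNF266 (chr19:9435574-9435823): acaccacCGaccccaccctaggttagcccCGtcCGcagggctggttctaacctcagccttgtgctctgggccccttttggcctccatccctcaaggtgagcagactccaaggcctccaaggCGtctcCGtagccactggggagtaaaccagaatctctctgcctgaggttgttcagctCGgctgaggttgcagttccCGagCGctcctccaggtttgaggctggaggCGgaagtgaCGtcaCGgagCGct
A start was found for 41 of the 50 lower genes and 100 of the 111 others. The median number of CG was 16 in the lower ones and 17 in the others, against 21 over all tested genes with a start and 11 over all 27305 promoters. At least 1 CG was found in 93.6% of all promoters. These counts are a description. Methylation was not measured here.

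Among all genes off chromosome 8, 6.88% were called lower and 5.45% higher, and other gene groups are read beside these shares. Of 18 tested interferon-stimulated genes, which act against viruses, 6 were called lower and none higher (median -0.51). They were IFIT2, IFIT3, IFI6, OAS3, IFIH1 and USP18. IFIH1, a sensor of double-stranded RNA, stood at 2.7 to 3.42 CPM in B7 and 3.88 to 8.02 CPM in F6 and G6 (-0.96, adjusted p = 0.00603), but parental cells lay at 3.26 to 5.32 CPM. OAS3, the most abundant of the 6, stood at 47.9 to 59.5 CPM against 54.2 to 82 CPM (-0.36) and 62.1 to 79.9 CPM in parental cells. IFIT2, IFIT3 and USP18 were under 6 CPM in every library of the 3 clones and of parental cells. None of the 6 was called in DMSO or tunicamycin libraries alone (adjusted p = 0.0928 to 0.612), and the count was 4 to 7 when single libraries were left out. The call of USP18 was also lost without the replicate term (adjusted p = 0.0603) and without any 1 of 9 libraries (0.0548 to 0.205), that of IFIT2 without either replicate 2 library or tunicamycin replicate 1 of B7 (0.0667 to 0.103), and that of IFI6 without DMSO replicate 1 of B7 (0.0655).

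Of 21 tested extracellular matrix and adhesion genes 5 were called lower, among them ITGA2, ITGA6, NRP1 and PLAUR, and LAMA5 higher, with a median of -0.45. The count called lower was 2 without any 1 of the B7 libraries and 15 without clone G6. The call of PLAUR (-0.85, adjusted p = 0.0474) was lost without the replicate term (0.0659) and without any 1 of the libraries of B7 or of F6 (0.0644 to 0.155). The call of LAMA5 (0.31, adjusted p = 0.0351) was lost without the replicate term (0.196) and without any 1 of the B7 libraries or either DMSO library of F6 (0.0595 to 0.108), and that of ITGA6 (-0.25) without any 1 of the B7 libraries or tunicamycin replicate 2 of F6 (0.0512 to 0.122). Of 12 Wnt target genes, the feedback inhibitors RNF43 (0.79) and NOTUM (0.47) were called higher and DKK1 (-0.68) and CD44 (-0.60) lower. NOTUM stood at 9.22 to 10.3 CPM in B7 and 5.67 to 8.39 CPM in F6 and G6. Parental cells lay at 8.82 to 13.1 CPM, so B7 was at their level and F6 and G6 were below it. DKK1, a secreted Wnt inhibitor, stood at 292 to 378 CPM in B7 against 427 to 605 CPM, and CD44, a hyaluronan receptor, at 234 to 317 CPM against 327 to 514 CPM. In both genes all B7 libraries lay below all of F6 and G6.

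Targets of p53 were split by position. The 3 on chromosome 8 were called higher (RRM2B 0.61, TNFRSF10B 0.43, TP53INP1 0.41). Of 19 elsewhere, SESN1 (0.33) and FDXR (0.30) were called higher and GDF15 (-0.74), TP53I3 (-0.63) and PLK3 (-0.45) lower, with a median of -0.02. In DMSO GDF15 was at 35.9 and 36 CPM in B7, 57.6 to 84.6 CPM in F6 and G6 and 43.3 to 50 CPM in parental cells. PLK3 was at 32.3 and 34.6, 37.7 to 52.4 and 35.4 to 37.2 CPM, in the same order. In both, F6 and G6 thus stood above parental cells in DMSO, and the value of GDF15 ranged from -0.99 to -0.50 over the alternatives. For DNA replication, GINS4 (0.79) and CCNE2 (0.35) on chromosome 8 rose, and of 24 elsewhere 2 did, GINS1 (0.28) and POLA1 (0.21). The calls of SESN1, PLK3 and POLA1 were lost without single B7 libraries: SESN1 without either DMSO library or tunicamycin replicate 2, PLK3 without DMSO replicate 1 or either tunicamycin library, and POLA1 without DMSO replicate 1 (0.0716). On chromosome 8, that of TP53INP1 was lost without either DMSO library of B7 (adjusted p = 0.0963 to 0.118). That of CCNE2 was lost without either tunicamycin library of B7 (0.0553 to 0.0598). The calls of RRM2B, TNFRSF10B and GINS4 held without any single library. Of 18 mitosis genes BUB1B (0.45) and AURKB (0.15) were called higher. The call of AURKB was lost without the replicate term (adjusted p = 0.0598), without clone F6 (0.121) and without any 1 of the B7 libraries or 3 of the 4 F6 libraries (0.0615 to 0.173). In cholesterol synthesis FDFT1 on 8p rose by 0.55 while SQLE on 8q did not pass (0.19, adjusted p = 0.134), and of 19 genes elsewhere 1 was called lower and 1 higher, the latter ACAT2 (0.19). The call of ACAT2 was lost without the replicate term (adjusted p = 0.0587), with no filter on low counts (0.101), without clone F6 (0.0893) and without any 1 of the B7 libraries or either DMSO library of F6 (0.058 to 0.115). Few stress genes were called. Of 18 ER chaperones PDIA4 was called lower (-0.16), and of 18 ATF4 targets PPP1R15A (-0.22). Both calls were lost without the replicate term (adjusted p = 0.123 and 0.113). That of PDIA4 was also lost without either DMSO library of B7 (0.0619 and 0.0786). That of PPP1R15A was also lost with scaling factors from genes off chromosome 8 (0.0557) and without any 1 of 10 libraries (0.0506 to 0.259). In DMSO PPP1R15A stood at 51.6 and 52.2 CPM in B7, within the 49.2 to 57.4 CPM of F6 and G6. With tunicamycin it stood at 243 and 215 CPM, below F6 and G6 (263 to 343 CPM) and parental cells (266 to 343 CPM). Its value ranged from -0.39 to -0.02 over the alternatives, and it was not called in the interaction. HSPA5, the main ER chaperone, stood at 775 and 928 CPM in DMSO and 8930 and 10200 CPM with tunicamycin in B7, overlapping F6 and G6 (834 to 1040 and 9150 to 9930 CPM), and was not called (-0.07, adjusted p = 0.443).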

How the data were processed

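The authors deposited raw counts per gene as whole numbers, not normalized, in 1 table of 32 libraries. Per the labels' protocols the RNA was poly(A)-selected, prepared with a directional kit and sequenced as paired reads. Per the submitters' processing notes, STAR 2.7.5c and hg38 were used. The counter, its annotation and its strand setting are not given in the sources used here, so overlapping and antisense genes are uncertain.

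Groups came from sample titles. In the 2 DMSO libraries of G6, whose treatment tag names tunicamycin, HSPA5 stood at 985 and 834 CPM. It stood at 1040 and 872 CPM in the DMSO libraries of F6 and at 9650 and 9930 CPM with tunicamycin in G6. B7 was compared with F6 and G6 in edgeR 4.0.16 (R 4.3.3) with TMM scaling, filterByExpr, the quasi-likelihood test and Benjamini-Hochberg adjustment over all tested genes at a threshold of 0.05. Treatment and replicate number were terms. The replicate numbers paired the libraries: deviations of same-numbered libraries correlated with r 0.128 to 0.405 in all 15 pairs of the 6 clone and treatment cells. Replicate libraries differed beyond sampling noise (chi-square per degree of freedom 4.95 to 12.9), and nothing says whether they came from separate cultures. Comparisons with parental cells had the same terms, and the interaction added B7 by treatment. For the test against the arm, the median of the arm was an offset. CPM use TMM-scaled library sizes. Positions matched 58429 of 60660 identifiers in GENCODE on GRCh38, and 122 tested genes had none. Sequences came from the labels and RefSeq.

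The comparison, the gene lists and the rule for named genes were chosen with earlier results of these data known. Genes of the lists could always be named. The rule added up to 12 genes of chromosome 8 with the largest rise, up to 12 at or below 0, up to 8 each way against the arm, and up to 12 each way off chromosome 8. These had mean counts of at least 100, and rises and changes off chromosome 8 showed no overlap within treatment. Alternatives were no replicate term, DESeq2 1.42.0, its size factors, TMM without chromosome 8, other filters on low counts, single treatments, each clone or library left out, and the comparison lines as separate terms. On simulated counts, 128 of 200 genes changed by 0.5 (log2) and 159 of 200 changed by 1 were recovered for B7 against F6 and G6. Figures were drawn with matplotlib 3.10.9. A few genes that the rule or the lists would name are not reported here.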

Additional observations from a re-analysis of the deposited data

Results flagged for a closer look

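Of 110 groups of values examined, 1 held a library far from the others. The groups mixed both treatments, and those of F6 and G6 also both clones. Such differences can hide a distant library, so the low number of flags does not mean that there were no others. KRT8P3, a keratin pseudogene on 8q, stood at 9.91 CPM in tunicamycin replicate 1 of B7, while the other 3 B7 libraries lay between 4.71 and 5.28 CPM. F6 also had its highest value in that treatment and replicate (11.3 CPM), and G6 its lowest (3.22 CPM).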

How the results depend on the processing

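Against the 2132 genes called for B7 against F6 and G6, 1412 were called with no replicate block, 431 with DMSO libraries, 305 with tunicamycin libraries, 4129 with the comparison lines as separate terms, 4921 without clone G6, 203 with an absolute log2 fold change above 1 (chosen after seeing the data), and 1221 to 2547 when single libraries were left out. Chromosome 8 genes called higher numbered 226 in DMSO, 177 in tunicamycin and 310 to 351 with single libraries left out. The chromosome 8 median was 0.4136 with no filter on low counts and 0.4486 to 0.4688 with single libraries left out. The 8p median was 0.5797 with no filter, 0.579 in DMSO, 0.5814 in tunicamycin and 0.5554 to 0.576 with single libraries left out, and distal 8q was 0.4059 in tunicamycin. All of these medians stayed above 0.

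Subunits of complexes on chromosome 8 called higher numbered 10 in DMSO and 7 in tunicamycin, against 16. Subunits elsewhere called numbered 1 with no replicate block, 10 with TMM without chromosome 8, 1 in DMSO, 0 in tunicamycin, 9 without the control libraries of G6, 43 with separate terms, 55 without clone G6 and 2 to 41 with single libraries left out. B7 against parental cells called 2178 genes with no replicate block and 1355 in tunicamycin. F6 and G6 against parental cells called 132 with no replicate block, 1369 with DESeq2, 1494 with no filter, 1 in DMSO, 1 in tunicamycin, 1799 without the control libraries of G6, 4058 without clone G6 and 391 to 1435 with single libraries left out, and their chromosome 8 genes called higher numbered 1 with no replicate block, 0 in DMSO, 0 in tunicamycin, 38 without the control libraries of G6, 90 without clone G6 and 7 to 26 with single libraries left out. The interaction called 26 genes with no filter, 2 with separate terms and 9 without clone G6.

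Relative to the arm, the genes called in all, chromosome 8 genes below and chromosome 8 genes above numbered 1035, 24 and 32 with no replicate block, 92, 2 and 3 in DMSO, 59, 2 and 1 in tunicamycin, 3814, 82 and 89 with separate terms, 2677, 57 and 77 without clone F6 and 4593, 108 and 92 without clone G6. With no filter 88 were above. With single libraries left out the ranges were 749 to 2112, 19 to 53 and 25 to 58. Genes near 0 changed sign: with no filter CASC8 (0.000107) and SLC20A2 (0.00715), in DMSO ZFHX4 (0.037), MFSD3 (0.0272), SLC20A2 (0.00254), LETM2 (-0.037), RPL30 (-0.0271), FABP5 (-0.013) and XRCC6 (0.0222), in tunicamycin KRT8P3 (0.171), SYBU (0.0108), CASC8 (0.0328) and HSPA5 (0.00943), with separate terms GRHL2 (0.167) and SLC20A2 (0.128), without clone F6 GRHL2 (1.26), PDLIM2 (0.0627), SYBU (0.0905), SLC20A2 (0.782) and LETM2 (-0.0954), and without clone G6 ZFHX4 (0.0515) and CASC8 (0.0222). With single libraries left out CASC8 ranged from -0.102 to 0.0594, SLC20A2 from -0.115 to 0.129, LETM2 from -0.047 to 0.138, GRHL2 from -0.351 to 0.0615, ZFHX4 from -0.0865 to 0.00319 and MFSD3 from -0.0792 to 0.0033. The cause of these changes was not tested. Single treatments and left-out libraries hold fewer libraries. The simulated data, in which 128 of 200 changes of 0.5 were recovered, had all 12 libraries and do not give the share recovered with fewer.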
